A study of Mus musculus with 2 samples.

Results

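Mitochondrial fatty acid oxidation was followed here through 31 genes, the rows of the deposited count matrices whose symbol was on a list of 31 symbols, out of 32285 genes listed. The list covers the activation of fatty acids, their import as carnitine esters, the β-oxidation enzymes, electron transfer, 3 enzymes of the peroxisomal branch, a thioesterase and 2 transcriptional regulators. Single cells were profiled with 10x Genomics 3′ chemistry from the lung (left lower lobe) of male mice 6 to 8 weeks old, of the outbred ICR stock. All mice had been given lipopolysaccharide (LPS), a bacterial cell wall component that inflames the lung. The LPS group had no further agent named in its treatment label. The LPS_MCZ group also received miconazole (MCZ), an azole antifungal, by intraperitoneal injection, for which the label of the sample gives 0.2 mg/kg whereas the protocol gives 1 mg/kg. No mice without LPS were analysed here.

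Each group was 1 library made from the pooled lobes of its mice, so the groups had no replicates and could not be tested, and the effect of treatment and that of the library cannot be told apart. After filtering, 12076 LPS and 8314 LPS_MCZ cells remained, with a median of 5809 and 6180 UMIs (unique molecular identifiers, each counting 1 captured transcript) per cell. Clustering without the 31 genes and their related genes gave 26 clusters, and marker genes named 14 classes, by rules set after clusters had been seen. The libraries shared 243 cell barcodes, and values without them are given among the processing alternatives. Lung markers were present: alveolar macrophage-like cells carried all 8 listed markers, among them Ear1 (188 and 367 CPM) and Mrc1 (861 and 1463 CPM), and cluster 21, left unnamed, was led by the airway gene Scgb1a1 and the surfactant gene Sftpc.

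Levels are CPM, the UMIs of a gene divided by all UMIs of its class and scaled to a fixed total of 1000000, given for LPS first and LPS_MCZ second. A 3′ tag counts a transcript once whatever its length, so CPM were not scaled by length. Differences are log2 ratios of LPS_MCZ over LPS with 1 CPM added to each side. Values in brackets are 95% intervals. They describe the counting error of the UMIs and not how mice vary. Intervals of ratios were computed without the added 1 CPM, so at low levels a ratio can lie off the centre of its interval. A gene was measured in a class where it had at least 50 UMIs over both libraries, and is called higher or lower where its log2 ratio lay beyond 0.5.

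As background, long-chain fatty acids are tied to coenzyme A by acyl-CoA synthetases, passed to carnitine by Cpt1a at the outer mitochondrial membrane, carried inward by Slc25a20 and returned to coenzyme A by Cpt2. Each round of β-oxidation dehydrogenates, hydrates, dehydrogenates again and cleaves the chain to release acetyl-CoA, and electron transfer flavoprotein passes electrons on to the respiratory chain. Alveolar macrophages take up and break down surfactant lipid, whereas neutrophils are known for relying largely on glycolysis.

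Sequences upstream of a RefSeq start are printed first for 3 members on which the results turn. They come from the RefSeq promoter table in GRCm38.p6, each cut where an annotated exon begins. Hadha and Hadhb encode the subunits of the mitochondrial trifunctional protein and lie head to head on chromosome 5, with starts at 30154980 on the minus strand and 30155253 on the plus strand, 273 bases apart, so the stretch between them is shown for its shared position (chr5:30155163-30155247, plus strand). Cpt1a, the entry enzyme of the shuttle, is shown as a member higher in macrophages (chr19:3323051-3323284, plus strand), and Acadl, the long-chain dehydrogenase, as the highest ratio in neutrophils (chr1:66863310-66863559, minus strand). The Cpt1a stretch lies inside the full span of the gene (3322326 to 3385735), so it precedes a start within the gene and not its outermost end. Capitals mark GGGCGG, the GC box, or its reverse complement CCGCCC, and in Cpt1a also TGACCT, the reverse complement of the nuclear receptor motif AGGTCA.
Hadhb: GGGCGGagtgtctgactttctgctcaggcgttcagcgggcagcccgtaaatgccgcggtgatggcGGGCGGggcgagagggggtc
Cpt1a: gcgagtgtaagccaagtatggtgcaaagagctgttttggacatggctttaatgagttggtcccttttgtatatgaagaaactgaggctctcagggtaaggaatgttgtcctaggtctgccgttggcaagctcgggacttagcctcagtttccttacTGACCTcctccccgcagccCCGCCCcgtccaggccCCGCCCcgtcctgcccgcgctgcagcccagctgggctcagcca
Acadl: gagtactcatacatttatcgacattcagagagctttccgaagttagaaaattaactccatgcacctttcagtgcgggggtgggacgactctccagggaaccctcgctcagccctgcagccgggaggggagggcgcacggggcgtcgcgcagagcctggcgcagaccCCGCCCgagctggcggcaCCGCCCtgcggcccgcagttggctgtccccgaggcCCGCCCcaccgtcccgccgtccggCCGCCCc

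Motifs were searched on both strands of the 250 bases before a RefSeq start in 25 members. AGGTCA occurred in 4 of them (Acadm, Acadvl, Cpt1a and Echs1) and in 14.0% of all 32851 windows of that length. AGGTCANAGGTCA, which holds AGGTCA on both sides and is the repeat form that PPAR receptors are known to bind, occurred in 0 members and 0.0335% of windows. GGGCGG occurred in 19 members and 32.7% of windows, and CCAAT in 12 members and 33.8% of windows. Acaa2, Crat, Decr1, Hsd17b4, Acot13 and Ppargc1b were not searched.

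Alveolar macrophage-like cells held the largest summed level of the 31 genes among the classes plotted, 1997 CPM [1965, 2029] in LPS and 1979 CPM [1945, 2014] in LPS_MCZ. Cluster 14, not plotted and left unnamed for its low UMI counts and mixed leading genes but with alveolar macrophage markers, was close, with 1924 CPM [1832, 2019] in LPS and 1747 CPM [1649, 1850.2] in LPS_MCZ. Cluster 21 was at 1150.3 and 1206 CPM, fibroblast-like cells at 1076 and 1335 CPM and classical monocyte-like cells at 1023 and 1063 CPM. Nonclassical monocyte-like cells (992 and 1124 CPM) and vascular endothelial-like cells (944 and 1054 CPM) came close to these, and neighbours in this order traded places between libraries. Lymphocytes were lower, with NK cell-like cells at 836 and 822 CPM, B cell-like cells at 785 and 829 CPM and T cell-like cells at 682 and 706 CPM. Neutrophil-like cells, the most numerous class, had 395 CPM [389, 400.4] in LPS and 527 CPM [519, 535] in LPS_MCZ. Erythroid-like cells, which lack mitochondria when mature, were at 159.5 and 231 CPM. The free RNA estimated for that class was 566 and 520.1 CPM. Free RNA cannot exceed the level observed, so the estimate was too high there. How much of the level is the cells' own expression cannot be told.

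**Figure D1:**
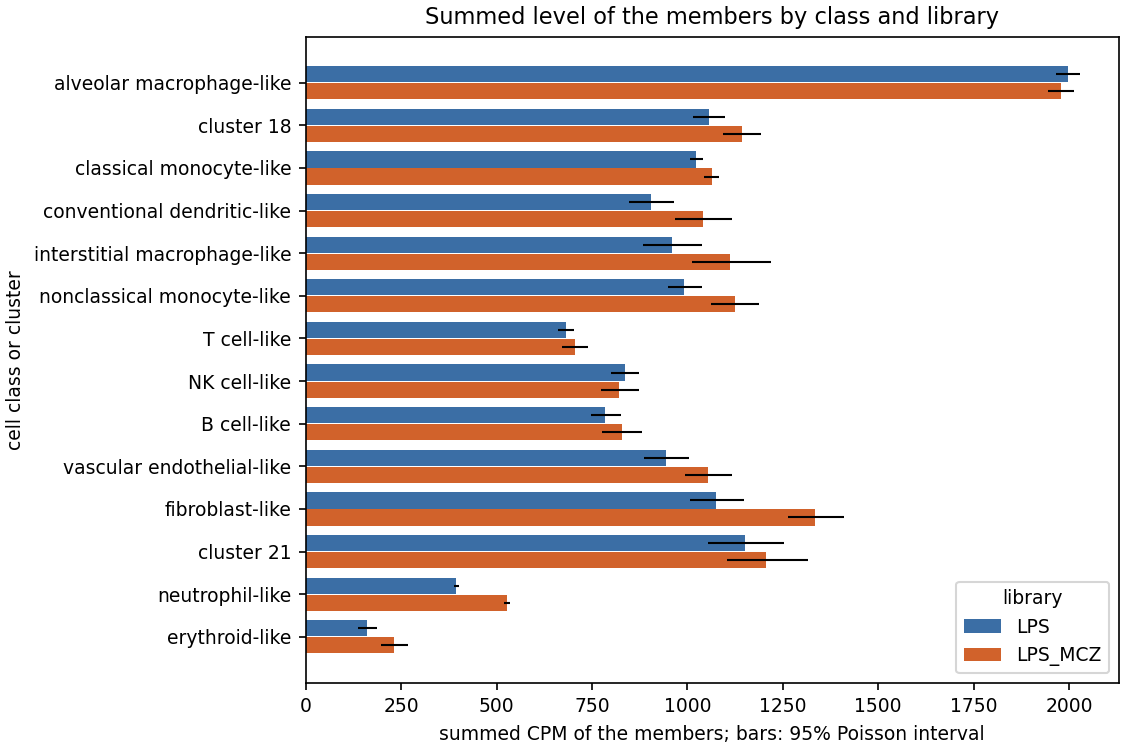
Summed CPM of the 31 genes in 12 cell classes and the unnamed clusters 18 and 21, with 1 bar per library and 95% Poisson intervals of the counts. Alveolar macrophage-like cells have the longest bars, at 1997 and 1979 CPM, and neutrophil-like cells are at 395 and 527 CPM.

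Several members were concentrated in particular classes. Acsl1, a long-chain acyl-CoA synthetase, was at 579 and 288 CPM in alveolar macrophage-like cells and at 42.0 and 46.2 CPM in neutrophil-like cells. Ehhadh, the peroxisomal bifunctional enzyme, was at 15.9 and 38.2 CPM in alveolar macrophage-like cells, and the next class plotted was T cell-like cells at 6.87 and 7.35 CPM. Acadsb, the dehydrogenase of short branched chains, was highest in vascular endothelial-like cells at 127 and 96.7 CPM. The leading class thus differed between the first 2 genes and Acadsb. Acsl3, a synthetase of the endoplasmic reticulum and lipid droplets, was at 77.4 and 57.8 CPM in cluster 21 and at 4.25 and 3.94 CPM in alveolar macrophage-like cells. Acadl was at 106 and 119 CPM in B cell-like cells, 82.5 and 136 CPM in fibroblast-like cells and 14.4 and 14.7 CPM in T cell-like cells, where free RNA from other cells could supply much of it. Ppara, the nuclear receptor known for inducing this pathway in liver, had 0 UMIs in alveolar macrophage-like cells, which allows up to 0.398 and 0.473 CPM (3 counts), and 4 and 12 UMIs over all kept cells.

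**Figure D2:**
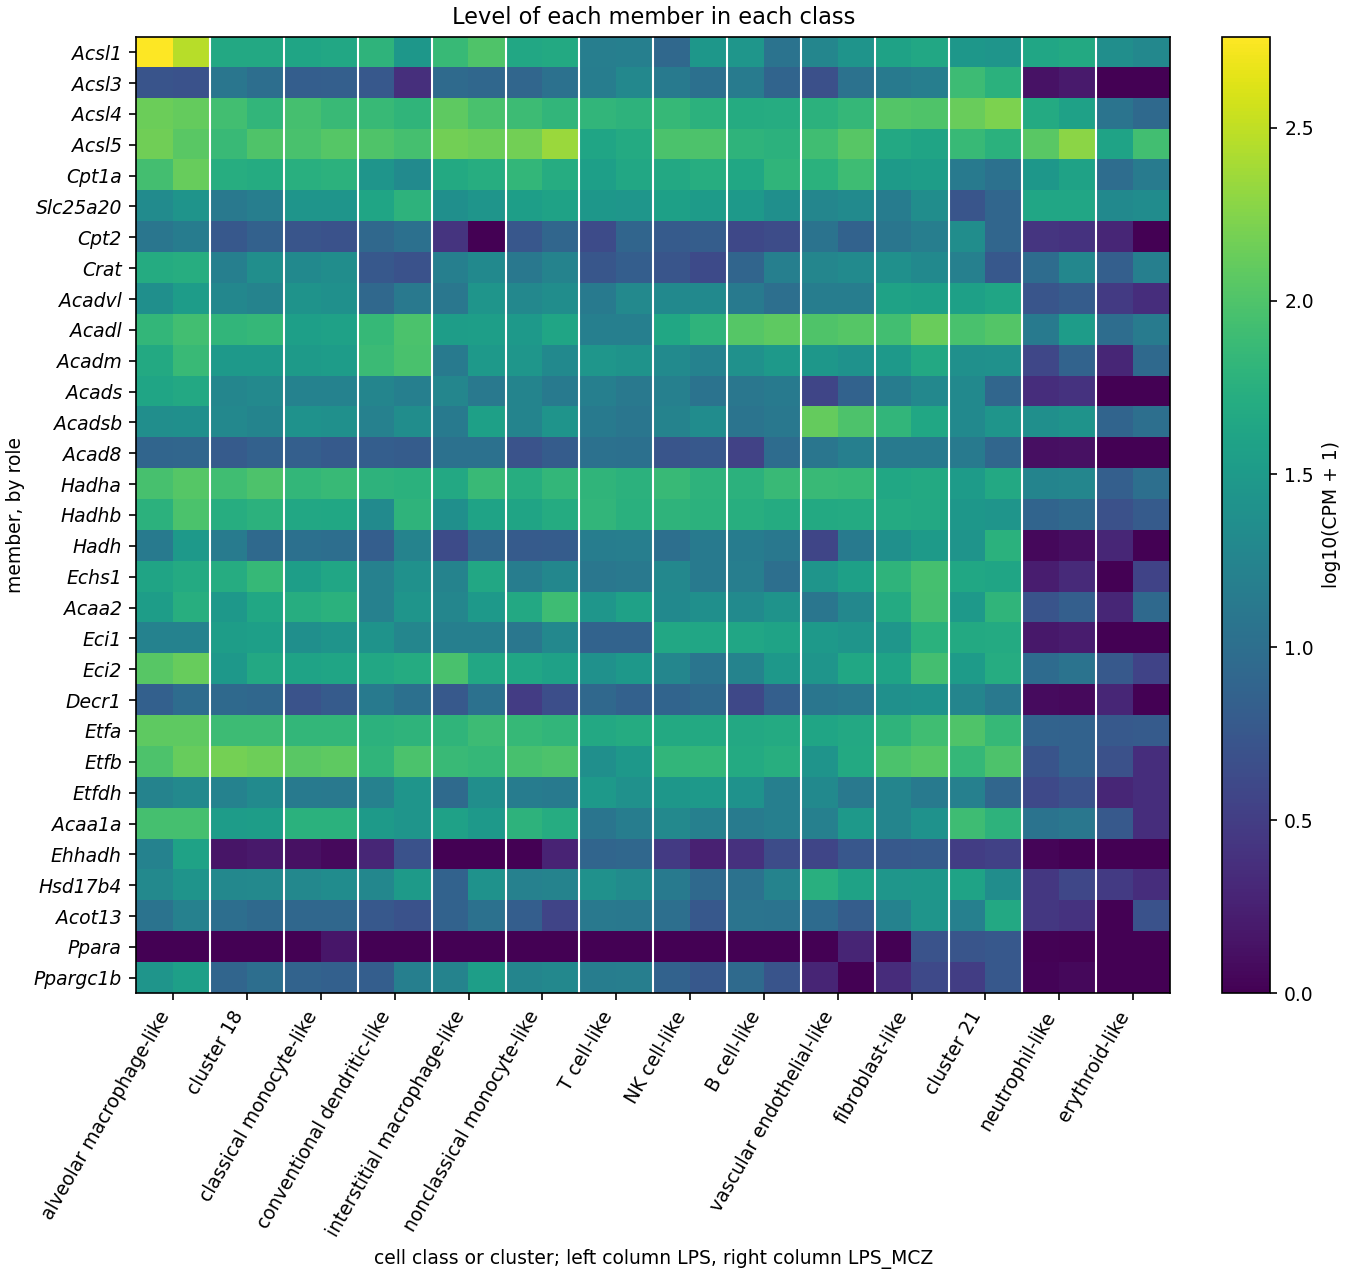
Level of each of the 31 genes by class or unnamed cluster and library, with colour on a log scale of CPM. Acsl1 is brightest in alveolar macrophage-like cells, at 579 and 288 CPM, and Ppara is dark in nearly every class.

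Alveolar macrophage-like cells numbered 357 in LPS and 268 in LPS_MCZ, with 7528260 and 6340354 UMIs in all. Of the 31 genes 30 were measured, 7 were higher in LPS_MCZ and 1 was lower. Of 9749 genes measured in the class, 11.8% were higher and 6.10% lower. The members' median ratio was 0.25, against 0.019 over all measured genes, and 25 of the 30 lay above 0. The sum was nearly the same in both libraries (−0.013 [−0.047, 0.021]). Acsl1 alone held 29.0% of the members' UMIs in LPS and 14.6% in LPS_MCZ, and without it the sum was 1418 and 1691 CPM (0.25 [0.22, 0.29]).

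The class consisted of 2 clusters that the libraries filled differently. Cluster 8, led by Slc7a2, Lpl and Clmp, held 299 of 357 LPS cells (83.8% [79.5, 87.4], Clopper-Pearson) and 97 of 268 LPS_MCZ cells (36.2% [30.4, 42.3]). Cluster 15, led by Kcnip4, Plet1 and Mrc1, held the other 58 and 171 cells. When the CPM of both clusters were averaged with equal weight in each library, a setting chosen after seeing the data, 2 members were higher (Ehhadh and Ppargc1b) and 0 lower, and the median was 0.076. By that weighting 7.29% of all measured genes were higher and 3.56% lower. Values within the clusters therefore stand beside the class values of the 8 members called higher or lower, and of some others. Of the 8 alveolar macrophage markers 5 were higher over the class (Ear1, Ear2, Siglecf, Plet1 and Mrc1) and Marco was at 1037 and 897 CPM; their part in the members' ratios was not tested.

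**Figure D3:**
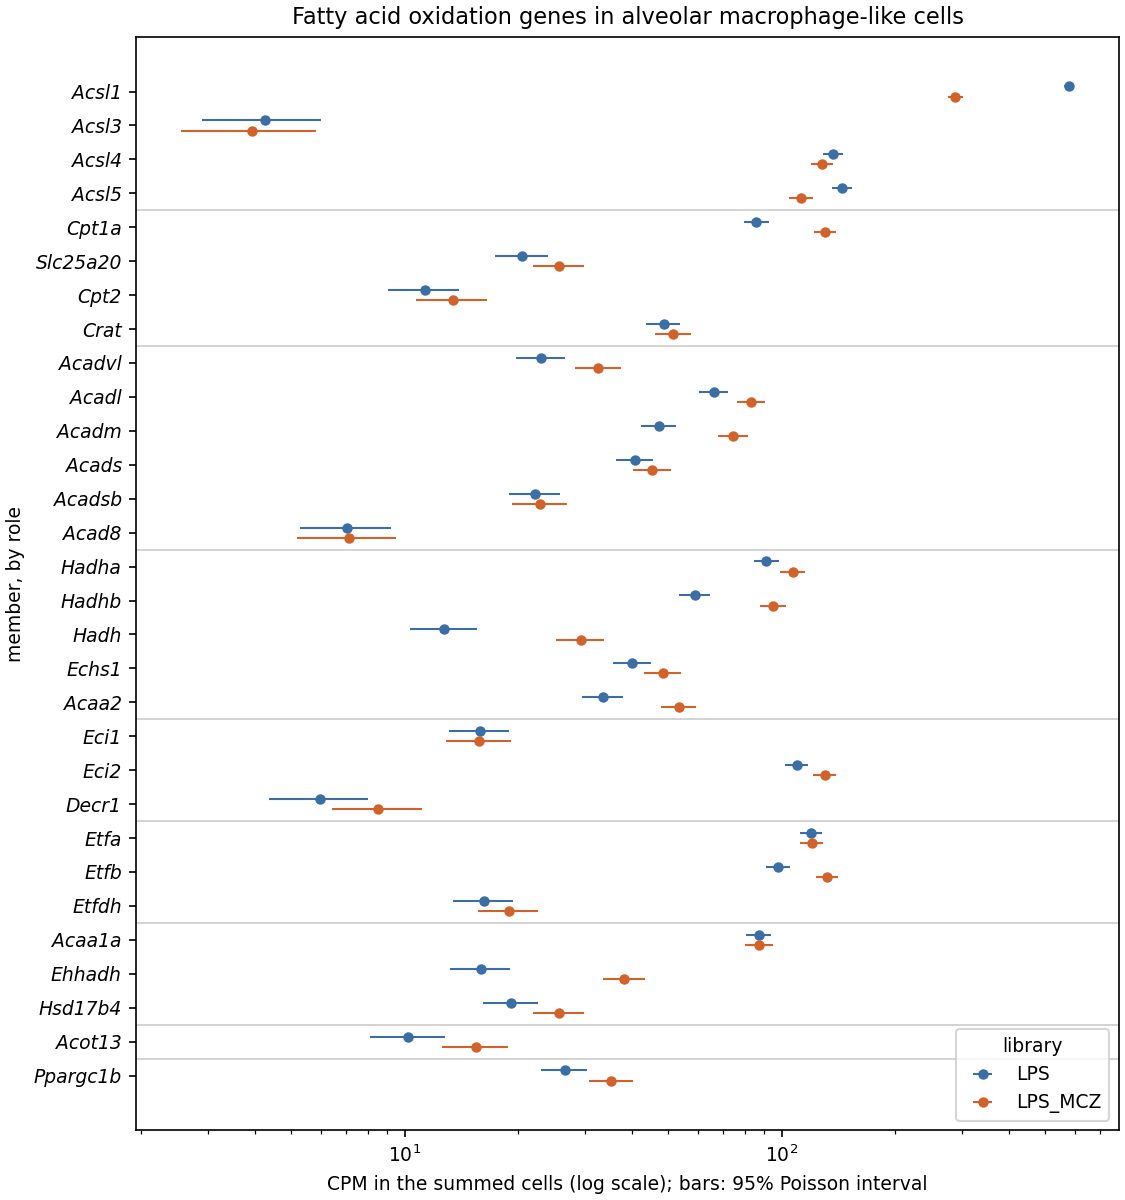
CPM on a log scale of the measured genes in alveolar macrophage-like cells, ordered by role, with 1 point per library and 95% Poisson intervals. Acsl1, at 579 and 288 CPM, is the gene lower in LPS_MCZ beyond 0.5, and 7 genes are higher beyond 0.5.

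The activation step had the lowest ratio of the roles over the class. The 4 synthetases together were at 865 and 533 CPM (−0.70 [−0.76, −0.64]). Within the clusters the ratio of their sum was −0.18 [−0.25, −0.11] (cluster 8) and 0.16 [−0.023, 0.34] (cluster 15). Acsl1 (chromosome 8, 46471037 to 46536051, GRCm38) was at 579 and 288 CPM over the class (4359 and 1829 UMIs; −1.0 [−1.08, −0.93]). Within cluster 8 it was at 669.7 and 556 CPM (−0.27 [−0.36, −0.18]), within cluster 15 at 84.8 and 105 CPM (0.31 [−0.0077, 0.65]), and with both weighted equally at −0.19. The gap between clusters was wider than the gap between libraries within either: cluster 15 lay below cluster 8 by a log2 ratio of −2.97 [−3.28, −2.69] in LPS and −2.39 [−2.56, −2.24] in LPS_MCZ. After each cell was thinned to 2000 UMIs, which left out 11 shallower LPS cells, Acsl1 was detected in 52.3% and 29.9% of macrophages, against 89.1% and 85.4% unthinned. In thinned erythroid-like cells, a class with a low summed level of the members, the shares were 3.70% and 2.91%. Median depths were 21769 and 22900 UMIs in macrophages and 6350 and 6091 in erythroid-like cells.

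Acsl5, a mitochondrial synthetase, was at 145 and 113 CPM over the class (−0.36 [−0.50, −0.22]), at 158 and 142 CPM in cluster 8 and at 71.1 and 92.9 CPM in cluster 15. Acsl4, which prefers arachidonic acid, was at 137 and 128 CPM. Acsl3, Acsl4 and Acsl5 all stayed within 0.5 over the class.

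The carnitine shuttle had the opposite sign over the class, with a sum of 166 and 221 CPM (0.41 [0.30, 0.52]). Its ratio was 0.15 [−0.014, 0.31] in cluster 8 and 0.24 [0.035, 0.44] in cluster 15. In cluster 15 the activation sum had the same sign. Cpt1a was at 85.7 and 130.3 CPM (645 and 826 UMIs; 0.60 [0.45, 0.76]). Within cluster 8 it was at 79.5 and 78.1 CPM (−0.026 [−0.27, 0.21]) and within cluster 15 at 119 and 166 CPM (0.48 [0.21, 0.75]), so the class ratio was not matched inside cluster 8. Cluster 15 exceeded cluster 8 by 0.58 in LPS and 1.08 in LPS_MCZ. The carrier Slc25a20 (20.5 and 25.7 CPM; 0.37 in cluster 8 and −0.29 in cluster 15), the inner-membrane transferase Cpt2 (11.3 and 13.4 CPM) and the carnitine acetyltransferase Crat (48.6 and 51.4 CPM) stayed within 0.5.

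The acyl-CoA dehydrogenases, which open each round of β-oxidation, summed to 206 and 265 CPM over the class (0.36 [0.26, 0.46]). The ratio of their sum was 0.22 [0.075, 0.36] in cluster 8 and 0.11 [−0.070, 0.30] in cluster 15. Acadm, for medium chains, was at 47.2 and 74.3 CPM (355 and 471 UMIs; 0.64 [0.45, 0.86]). It was at 43.1 and 64.9 CPM in cluster 8 (0.58 [0.30, 0.87]) and at 69.4 and 80.7 CPM in cluster 15 (0.21 [−0.14, 0.59]). Acadm was the 1 dehydrogenase beyond 0.5. Acadvl, for very long chains, was just inside it at 23.0 and 32.6 CPM (0.49 [0.21, 0.81]), and Acadl was at 66.0 and 83.0 CPM (0.33 [0.15, 0.51]). The short-chain enzyme Acads (40.8 and 45.4 CPM), Acadsb (22.2 and 22.9 CPM) and the valine-pathway enzyme Acad8 (7.04 and 7.10 CPM) differed by less than 0.2.

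The enzymes of hydration, the second dehydrogenation and thiolysis had the highest class ratio of the enzyme groups with more than 1 gene, 236 and 333 CPM (0.49 [0.40, 0.59]). The ratio of their sum was 0.35 [0.21, 0.48] in cluster 8 and 0.12 [−0.045, 0.28] in cluster 15. Hadhb, the β subunit of the trifunctional protein, was at 58.8 and 94.9 CPM (443 and 602 UMIs; 0.68 [0.51, 0.87]), with 52.7 and 68.4 CPM in cluster 8 (0.37 [0.10, 0.64]) and 92.6 and 113 CPM in cluster 15 (0.29 [−0.018, 0.61]). Hadha, the α subunit, was at 91.0 and 107 CPM (0.23 [0.08, 0.39]). The counting intervals of the subunits' class ratios did not overlap, and the genes share the upstream stretch printed above. With the clusters weighted equally the ratios were 0.075 for Hadha and 0.32 for Hadhb. Whether the subunits differ within the clusters was not tested.

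Hadh, the mitochondrial short-chain hydroxyacyl-CoA dehydrogenase, was at 12.8 and 29.3 CPM over the class (96 and 186 UMIs; 1.14 [0.84, 1.57]). Within the clusters it was at 7.70 and 10.9 CPM (cluster 8, 0.45 [−0.23, 1.20]) and 40.3 and 42.0 CPM (cluster 15, 0.057 [−0.42, 0.56]), and with the clusters weighted equally its ratio was 0.13. Cluster 15 exceeded cluster 8 by 2.25 in LPS and 1.85 in LPS_MCZ, the largest positive gap between clusters among the members named here. Acaa2, the mitochondrial thiolase, was at 33.5 and 53.3 CPM (252 and 338 UMIs; 0.66 [0.43, 0.91]), with 30.7 and 47.4 CPM in cluster 8 (0.61 [0.29, 0.96]) and 48.8 and 57.4 CPM in cluster 15. Echs1, the short-chain enoyl-CoA hydratase, was at 40.1 and 48.4 CPM over the class, at 38.2 and 57.1 CPM in cluster 8 (0.57 [0.27, 0.88]) and at 50.6 and 42.5 CPM in cluster 15 (−0.25 [−0.69, 0.21]).

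The auxiliary enzymes for unsaturated chains stayed within 0.5. The isomerases Eci1 and Eci2 were at 15.8 and 15.8 CPM and at 109.6 and 130.0 CPM, and the dienoyl-CoA reductase Decr1 at 5.98 and 8.52 CPM. The electron transfer flavoprotein subunits Etfa and Etfb were at 119.5 and 120.0 CPM and at 97.9 and 132 CPM, and their acceptor Etfdh at 16.2 and 18.9 CPM. Etfb had the highest ratio of the 3 (0.43 [0.28, 0.57]) but was at 82.7 and 99.1 CPM in cluster 8 and 181 and 154 CPM in cluster 15, where the order of the libraries was reversed.

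Among the peroxisomal enzymes Ehhadh had the highest class ratio of the 30 measured genes, 15.9 and 38.2 CPM (120 and 242 UMIs; 1.21 [0.94, 1.59]), and it was higher in both clusters (14.9 and 40.4 CPM and 21.4 and 36.6 CPM). Few cells carried it. A UMI was found in 78 LPS and 72 LPS_MCZ cells, the 5 highest cells held 33 of 120 and 150 of 242 UMIs, and a single LPS_MCZ cell held 60. Without the 5 highest cells of each library the ratio was 0.30. Hsd17b4, the D-bifunctional enzyme, was at 19.1 and 25.7 CPM, and the thiolase Acaa1a at 86.9 and 87.2 CPM; Acaa1a has a near-identical paralog, Acaa1b, and the split of tags between them is uncertain. The thioesterase Acot13 was at 10.2 and 15.5 CPM (77 and 98 UMIs; 0.55 [0.15, 1.05]) and within 0.5 in both clusters, at 9.75 and 11.7 CPM in cluster 8 (0.24) and 12.9 and 18.1 CPM in cluster 15 (0.46). The coactivator Ppargc1b was at 26.6 and 35.3 CPM over the class (0.40 [0.13, 0.69]), at 27.5 and 39.2 CPM in cluster 8 and at 21.4 and 32.7 CPM in cluster 15.

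**Figure D4:**
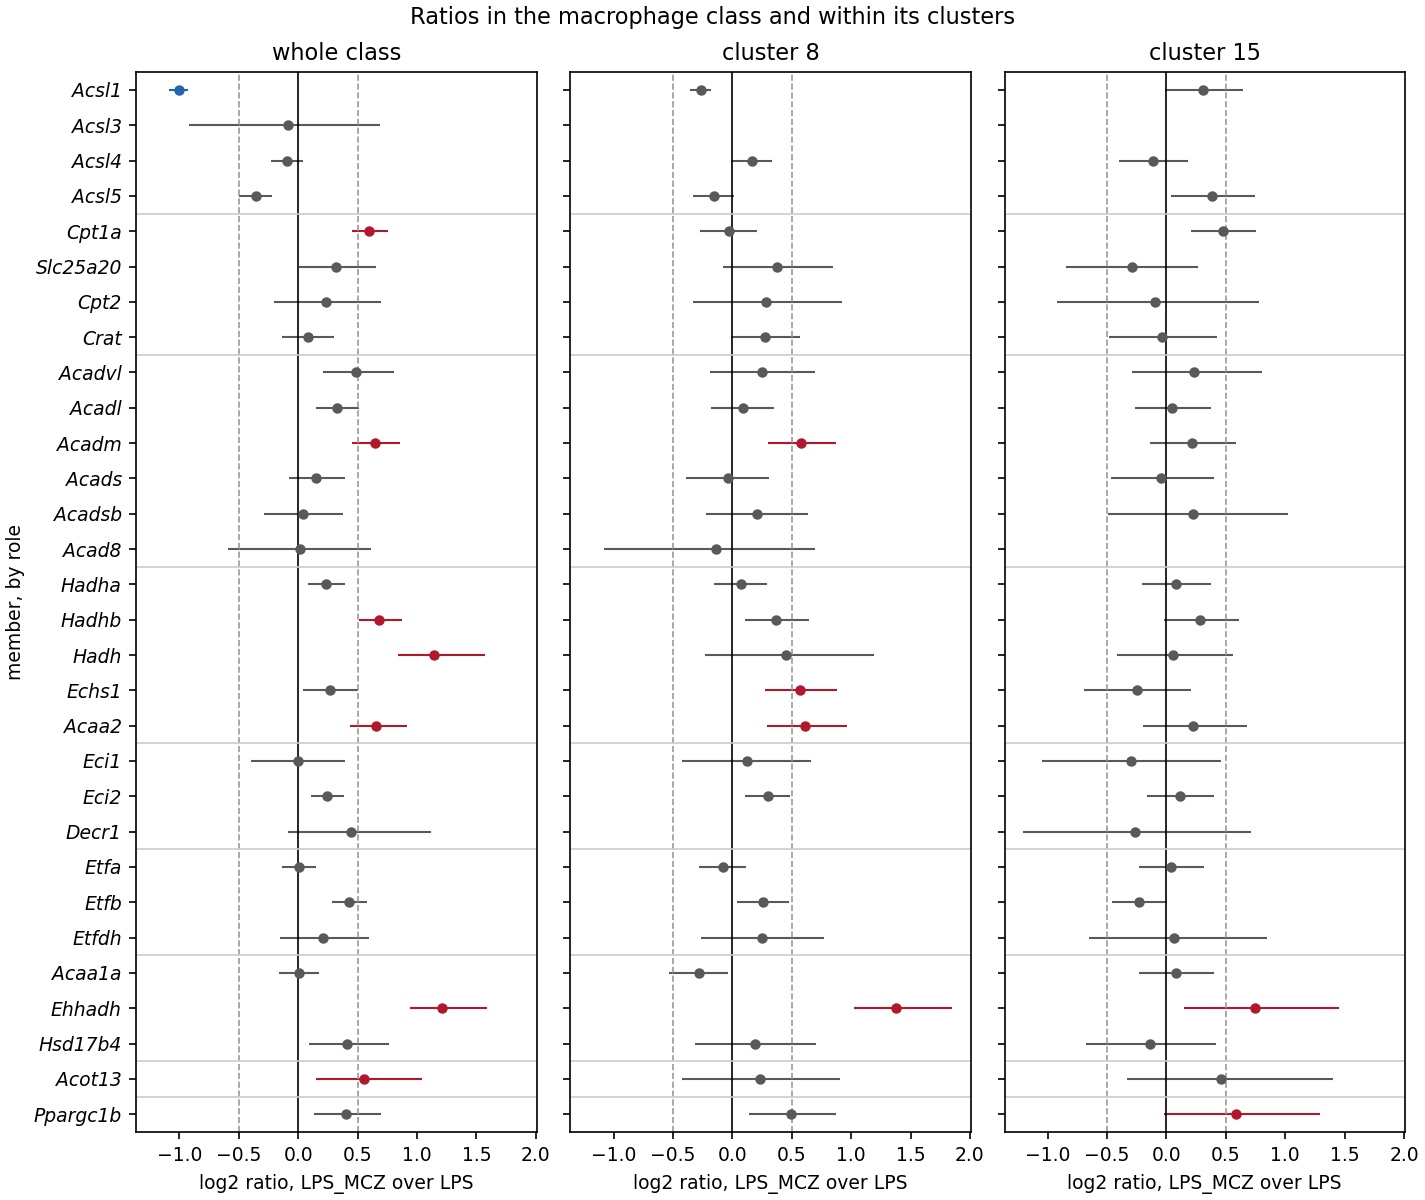
Log2 ratio of LPS_MCZ over LPS of each measured gene over the alveolar macrophage-like class, within cluster 8 and within cluster 15, with 95% counting intervals and lines at 0.5. The 7 genes higher over the class become 4 in cluster 8 and 2 in cluster 15, and Acsl1 goes from −1.0 in the class to −0.27 and 0.31.

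Within cluster 8, 28 members were measured, 4 were higher (Ehhadh, Acaa2, Acadm and Echs1) and 0 lower. Of all 8799 genes measured there, 585 were higher and 490 lower, 12.2% in either direction. The members' median was 0.24 there and that of all genes 0.0032. Within cluster 15, of 28 measured members 2 were higher (Ehhadh and Ppargc1b) and 0 lower. Of all 7763 genes measured there, 1011 were higher and 430 lower, 18.6% in either direction. The medians of members and of all genes were 0.071 and 0.052. Without the 5 highest cells of each library the Ehhadh ratio was 0.20 in cluster 8 and 0.28 in cluster 15. Those 5 cells were a larger share of the library with fewer cells. That was LPS in cluster 15 (58 and 171 cells) and LPS_MCZ in cluster 8 (299 and 97 cells). After the same step Hadh in cluster 15 was at 0.68, above its ratio given earlier, and Acsl1 in cluster 8 at −0.47, below its own. What remains of the Ehhadh difference can thus not be read from this step. Another cluster, 14, had 8 of 8 alveolar macrophage markers but a median of only 1056 and 743 UMIs per cell and was led by Igha and Mki67, so it was left unnamed. There Acsl1 was at 535 and 306 CPM (−0.80 [−1.05, −0.56]) and Cpt1a at 86.3 and 138 CPM (0.67 [0.22, 1.14]).

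The clusters were also compared with each other within a library. In LPS 10 of 28 measured members were higher in cluster 15 than in cluster 8 and 2 were lower, beside 16.0% and 21.5% of all measured genes. In LPS_MCZ 9 were higher and 3 lower, beside 17.8% and 14.0%. Cpt1a, Acadvl, Acadl, Hadhb, Hadh, Etfb and Hsd17b4 were higher in both libraries, and Acsl1 and Acsl5 lower in both. Cluster 15 thus combined less of the main synthetase with more of the shuttle entry enzyme and of several β-oxidation enzymes. Acadl differed by 0.57 and 0.54, Hadhb by 0.80 and 0.72, Hsd17b4 by 0.98 and 0.64, and Acsl5 by −1.14 and −0.60.

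Of 40 related genes of the pathway 31 were measured over the class, 12 were higher and 0 lower, beside the 11.8% and 6.10% of all measured genes, with a median of 0.30. The peroxisomal ones among the 12 included the acyl-CoA oxidase Acox3 (37.2 and 55.7 CPM, 0.57 [0.35, 0.81]), the carnitine octanoyltransferase Crot (10.1 and 19.1 CPM), the transporter Abcd2 (102 and 159 CPM), the sterol carrier protein gene Scp2 (122 and 176 CPM) and Acaa1b (257 and 370.2 CPM), the last with the uncertainty given for Acaa1a. Others were the thioesterase Acot2 (25 and 80 UMIs; 3.32 and 12.6 CPM, 1.66 [1.26, 2.64]), the leucine-pathway enzyme Ivd (4.38 and 8.83 CPM), the propionyl-CoA carboxylase subunit Pccb (7.84 and 13.2 CPM), Acad11 (4.12 and 7.41 CPM), Hsd17b10 (13.8 and 20.2 CPM) and the thiolase Acat1 (36.9 and 53.8 CPM). Within the clusters 4 of 27 measured related genes were higher in cluster 8 and 1 was lower, and 4 of 26 were higher in cluster 15 and 0 lower, beside 12.2% and 18.6% of all measured genes in either direction. Acot2 had ratios of 1.04 [0.21, 2.40] in cluster 8 and 1.05 [0.13, 2.33] in cluster 15. Pdk4 and Angptl4, genes known to respond to fatty acids through PPAR receptors, were at 14.9 and 18.6 CPM and 81.6 and 76.8 CPM. Of 21 genes of the tricarboxylic acid cycle and pyruvate entry 20 were measured, 1 was higher (Suclg2, 24.0 and 36.1 CPM, 0.57 [0.30, 0.88]) and 0 lower, with a median of 0.21.

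Neutrophil-like cells, 7267 in LPS and 4064 in LPS_MCZ, held the members at a low level with a higher sum in LPS_MCZ (395 and 527 CPM; 0.42 [0.39, 0.45]). Of 23 measured members 4 were higher and 0 lower, beside 11.6% and 4.71% of 10287 genes. The median ratio was 0.11 over all genes and 0.25 over the members, so every ratio in this class is read against a shift of 0.11. Acsl5 was at 113 and 193 CPM (5198 and 5671 UMIs; 0.77 [0.72, 0.83]), the largest single level among the 4. Acadl was at 12.6 and 33.0 CPM (580 and 970 UMIs; 1.32 [1.24, 1.54]). The carnitine acetyltransferase Crat was at 8.42 and 17.8 CPM (387 and 523 UMIs; 1.00 [0.89, 1.27]), and Acadm at 2.92 and 6.54 CPM (134 and 192 UMIs; 0.95 [0.84, 1.49]). The remaining synthetases did not follow Acsl5: Acsl4 was at 48.4 and 37.4 CPM (−0.36 [−0.48, −0.27]) and Acsl1 at 42.0 and 46.2 CPM (0.13 [0.036, 0.24]). After thinning to 2000 UMIs, Acadl was detected in 2.19% and 6.28% of neutrophil-like cells and Acsl5 in 18.7% and 28.5%. Without thinning these shares were 6.70% and 18.9% for Acadl and 38.8% and 57.0% for Acsl5. In thinned erythroid-like cells Acsl5 was found in 8.89% and 10.7% of cells.

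The neutrophil clusters too were filled unequally. Cluster 0 held 1768 LPS and 181 LPS_MCZ cells, cluster 2 held 1330 and 114, and cluster 5 held 406 and 1595. Cluster 7, with 297 and 1677 cells, had 10 of 10 neutrophil markers but a nonclassical monocyte marker among its leading genes, and stayed outside the class. Beyond 0.5 in either direction were 7 of 13 measured members in cluster 0, 3 of 12 in cluster 1 and 6 of 14 in cluster 2, beside 32.0%, 33.7% and 32.8% of all measured genes. Of these, 4 were lower in cluster 0 (Acsl4, Eci2, Etfa and Acaa1a), 1 in cluster 1 (Acsl4) and 2 in cluster 2 (Hadhb and Eci2), so the class count of 0 lower did not hold within these clusters. The intervals of the ratios of Acsl4 (−0.75 [−1.29, −0.30] in cluster 0, −0.51 [−0.82, −0.23] in cluster 1) and of Acaa1a (−1.06 [−2.70, −0.043]) lay below 0, and those of the lower Eci2, Etfa and Hadhb held 0. In clusters 4, 5, 6 and 7 the members beyond 0.5 were 4 of 19, 5 of 18, 5 of 15 and 6 of 14, each of them higher, beside 18.6%, 26.2%, 24.3% and 32.8% of all measured genes. The ratios of Acadl and Acsl5 were above 0, with intervals above 0, in all 7 clusters with neutrophil markers. Acadl ran from 22.3 and 34.8 CPM in cluster 4 (0.62 [0.39, 0.90]), led by the granule genes Camp, Ltf and Ngp, to 7.99 and 27.6 CPM in cluster 6 (1.67 [1.34, 2.24]). Acsl5 ran from 185 and 246 CPM in cluster 1 (0.40 [0.28, 0.53]) to 86.4 and 194 CPM in cluster 2 (1.16 [0.91, 1.43]), and its LPS_MCZ level was highest in cluster 7 (170.1 and 314 CPM). Crat was also above 0 in all 7, but its interval held 0 in cluster 2 (8.89 and 10.6 CPM, 0.23 [−1.01, 1.30]). Acadm had at least 50 UMIs in clusters 4 (4.99 and 10.2 CPM) and 5 (1.25 and 6.43 CPM) of the 7. Acsl1 went both ways, from −0.25 in cluster 1 to 1.00 in cluster 6.

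**Figure D5:**
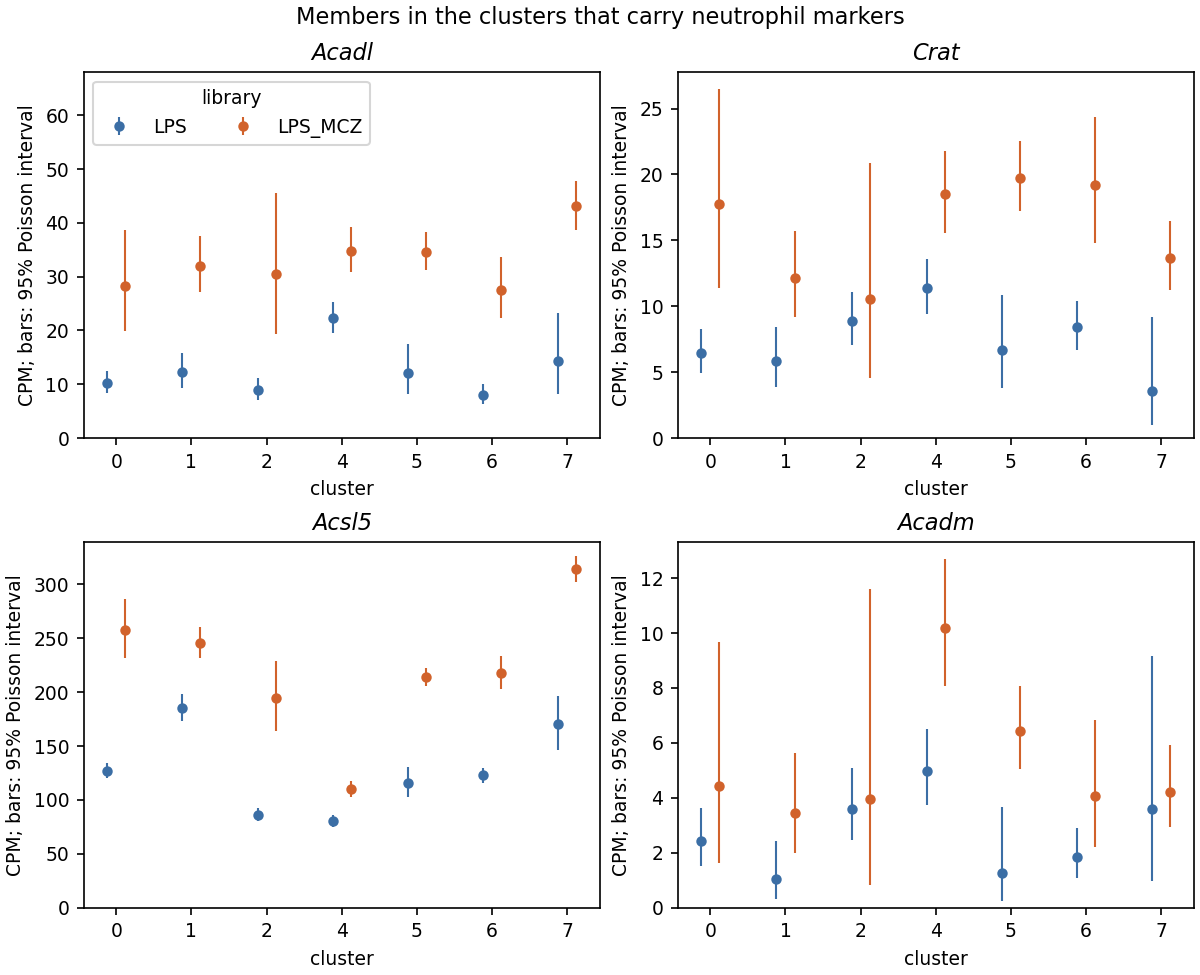
CPM of Acadl, Crat, Acsl5 and Acadm in the 7 clusters with neutrophil markers, with 1 point per library and 95% Poisson intervals. Acadl in LPS_MCZ, 27.6 to 43.1 CPM, lies above Acadl in LPS, 7.99 to 22.3 CPM.

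In classical monocyte-like cells 29 members were measured and 0 were higher and 0 lower, beside 4.91% and 3.75% of all measured genes, with a median of 0.035. Etfb was at 112 and 119 CPM there and Acsl5 at 92.0 and 106 CPM. In the smaller classes the count beyond 0.5 in either direction was 3 of 17 measured members in nonclassical monocyte-like cells (14.8% of all measured genes), 4 of 12 in conventional dendritic-like cells (27.8%) and 1 of 28 in T cell-like cells (11.3%). It was 4 of 20 in NK cell-like cells (12.6%), 4 of 15 in B cell-like cells (20.7%), 2 of 14 in vascular endothelial-like cells (20.4%) and 6 of 16 in fibroblast-like cells (25.9%). In nonclassical monocyte-like cells Acsl5 was at 150.1 and 224 CPM (0.58 [0.33, 0.83]) and Acaa2 at 45.4 and 80.1 CPM (0.81 [0.38, 1.26]). In fibroblast-like cells, 97 and 93 in number, the isomerases had the highest ratios, Eci2 at 39.4 and 85.3 CPM (1.10 [0.51, 1.75]) and Eci1 at 27.1 and 56.5 CPM (1.03 [0.32, 1.85]). In conventional dendritic-like cells Hadhb was at 20.2 and 61.7 CPM (21 and 46 UMIs) and Acsl1 at 62.4 and 28.2 CPM (65 and 21 UMIs). In NK cell-like cells Acsl1 was at 7.54 and 28.2 CPM. The free RNA estimate for it was 14.8 and 15.9 CPM, above the whole level in LPS and below that in LPS_MCZ. In LPS the estimate was thus too high. How much of either level is the cells' own expression cannot be told.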

How the data were processed

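Single-cell RNA of 2 pooled lung libraries was analysed from the deposited count matrices, which hold UMI counts per gene and cell barcode; the authors made them with Cell Ranger 7.0.0, per the file headers, after bcl2fastq 2.20 and against mm10, per the submitters' processing notes. The libraries held 12577 and 8500 barcodes with 90597705 and 68467793 UMIs. A cell was kept if it had 200 genes or more, 500 UMIs or more, and no more than 20% of its UMIs from mitochondrial genes. Counts per cell were scaled to 10000, log-transformed and clustered (scanpy 1.11.5; 2000 variable genes, 30 components, 15 neighbours, Leiden resolution 1), leaving the 31 members and their related genes out. Clusters were named from marker lists of 25 classes; a cluster needed 3 markers, and clusters with conflicting leading genes stayed unnamed. Scrublet called 2 and 0 doublets, so it did not work here, and no cells were removed in the values reported; an alternative removed the cells with the highest doublet scores.

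Raw UMIs were summed per class and library and expressed as CPM, and log2 ratios used a pseudocount of 1 CPM. Intervals were exact (Poisson for levels, conditional Clopper-Pearson for ratios, 95%) and cover counting error only. With 1 library per group no test was made. The intervals and the 0.5 rule were tried on counts simulated from the same Poisson model that the intervals assume. That could not show how the intervals hold where a few cells carry most UMIs of a gene, as with Ehhadh. Free RNA was estimated from S100a8 and S100a9 outside neutrophils. In platelet-like cells the estimate came to 139% of all UMIs in LPS and 156% in LPS_MCZ, which is not possible. It can thus overstate free RNA. The members, gene lists and rules were chosen with earlier results of these data known. All members are named; full values were given for members beyond 0.5 with at least 200 UMIs in alveolar macrophage-like cells, related and TCA genes were named when beyond 0.5 there (not all are reported here), and in other classes up to 3 members with the largest ratios each way. Pdk4, Angptl4 and further genes named outside this rule were chosen after their values were seen. Promoter windows came from the RefSeq table for GRCm38.p6. Fewer cells of a type and less RNA per cell cannot be told apart from a class's summed counts alone. Alternatives covered filters, scaling, pseudocount, clustering resolution, doublets, thinning, per-cell means, shared barcodes and cluster weighting.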

Additional observations from a re-analysis of the deposited data

Results flagged for a closer look

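The class ratios of the synthetases Acsl1 and Acsl5 were negative in alveolar macrophage-like cells and positive in neutrophil-like cells, without allowing for the neutrophil shift. The difference between the classes was not tested, since each class had 1 library per group. Acsl1 was at −1.0 [−1.08, −0.93] in alveolar macrophage-like cells and 0.13 [0.036, 0.24] in neutrophil-like cells, a gap of −1.14 on the log2 scale. The neutrophil interval of Acsl1 holds the median ratio of all genes in that class, given above. Its positive sign thus cannot be told apart from that shift. Among the clusters with neutrophil markers Acsl1 went both ways, from −0.25 in cluster 1 to 1.00 in cluster 6. Acsl5 was at −0.36 [−0.50, −0.22] and 0.77 [0.72, 0.83], a gap of −1.12. The macrophage values differ within the clusters: Acsl1 was at −0.27 in cluster 8 and 0.31 in cluster 15, and Acsl5 at −0.16 and 0.38.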

How the results depend on the processing

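No paired analysis was possible because each group had 1 library and no test was made. In all, 633 recomputed values of 89 results were compared with those reported. Of these, 92 lay outside the counting interval or the count limit, and 0 of the values called higher or lower reversed sign. For a median over members the limits were the medians of the single genes' interval bounds, which are wide and are not an interval of the median. All 16 alternatives of the macrophage median fell inside them, although 1 was as low as 0.076. The 92 include shares of cells at other thinning depths, which move with depth. Class ratios were not compared with ratios within single clusters. There Acsl1 in cluster 15 and Cpt1a in cluster 8 had the other sign, as given above. The median over members in alveolar macrophage-like cells ran from 0.076 to 0.31 over 16 alternatives. With both clusters weighted equally, 2 members were higher and 0 lower and the summed ratio was 0.073; Acsl1, Cpt1a, Hadh, Hadhb, Acaa2, Acadm and Acot13 then lay within 0.5. Thinned to 2000 UMIs per cell, 1 member was higher and the summed ratio was −0.10, with fewer members left to measure. The mean of per-cell CPM gave a summed ratio of −0.054, 1 higher member in cluster 15 and 1 lower in cluster 8. Without Acsl1 the summed ratio was 0.25. Without the shared barcodes 8 members were higher and 1 lower. The neutrophil sum was 0.48 with cluster 7 added, 0.47 with the highest doublet scores removed and 0.31 with median-ratio scaling. Acadl in neutrophil-like cells stayed between 1.21 and 1.41. Apart from the alternatives built on fewer UMIs, genes or cells, the cause of these shifts was not tested. The cluster weighting, cluster 7, Acsl1, shared-barcode and highest-cell settings were chosen after seeing the data.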
